A study of Thermothelomyces thermophilus ATCC 42464 with 4 samples.

Results

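Cytosine methylation was described in a 150-kb region of chromosome 1 of the thermophilic fungus Myceliophthora thermophila, from 2860001 to 3010000. The region was divided into 300 windows of 500 bp, of 77489 such windows on the 7 chromosomes, and the other 21562 windows of chromosome 1 served as the comparison. All 300 windows were kept, methylated or not. The region was chosen on the measured methylation lists themselves, with the contrast between the strains known, so its contrast with the rest of chromosome 1 is given as a description without a test, and no count of changed windows in it is read as support for a difference between strains.

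Whole-genome bisulfite sequencing had been carried out on mycelium of the wild-type (WT) strain and of ΔlaeA, a strain that lacks the putative methyltransferase LaeA according to the sample titles, after 24 h on glucose. Each strain had 2 libraries, and the labels do not say whether the replicates were separate cultures, so p-values measure only the spread between these libraries, which may be technical. The genotype label of the mutant speaks of a knockdown rather than a deletion. In bisulfite sequencing unmethylated cytosines are converted and read as T, so the share of reads that keep a C at a position is its methylation level.

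The deposited lists hold only cytosines that were called methylated, and such a cytosine is called a listed site here. A listed site had at least 5 reads, at least 2 of them methylated, a level of at least 0.05 as a fraction and an adjusted p-value of at most 0.01. A level given below is therefore a level of listed sites, which lies above that of all cytosines, and a cytosine missing from a list can be unmethylated, weakly methylated or poorly covered. The 4 lists held between 1899567 and 2044100 sites at a median depth of 47 to 59 reads. Sites listed on just 2 methylated reads were more numerous in the ΔlaeA lists of this region (698 and 729) than in the WT lists (285 and 331). The same held for the whole lists, with 63879 and 53476 such sites in ΔlaeA and 25542 and 27335 in WT. Without such sites the difference between the strain means in number of sites was -2366.5 instead of -1961 over the region, and the difference in CHH level was -0.60 instead of -0.75 percentage points. The gene laeA itself, elsewhere on chromosome 1, held 2 and 1 listed sites in WT, and 62 and 25 in ΔlaeA. Each listed site rests on mapped reads, so sequence of laeA was read in both libraries labelled ΔlaeA, at listed sites from 2 to 1748 bp into the gene of 1993 bp in replicate 1 and from 8 to 727 bp in replicate 2. These sites had a median of 23.5 and 11 reads, against library medians of 56 and 47. The paper states that the coding region of a deleted gene was exchanged for a marker cassette. Where the reads at laeA came from was not tested. The exact bases removed are not given in the sources used here, and ΔlaeA below means the libraries labelled so, also wherever a direction is given.

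Methylation of cytosine in filamentous fungi is best known from Neurospora crassa. There a single DNA methyltransferase, DIM-2, methylates cytosines in every sequence context, guided by the heterochromatin mark H3K9me3 and its reader HP1. Most methylated DNA in that species consists of relics of repeat-induced point mutation (RIP), which turns C:G pairs of duplicated DNA into T:A pairs and leaves A:T-rich, gene-poor stretches. Contexts are named by the bases after the cytosine: CG and CHG are symmetric, so that the opposite strand carries a partner cytosine, whereas CHH (H stands for any base but G) has none.

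Methylation in the region fell into long, densely methylated runs parted by stretches that were almost free of listed sites. Of the 300 windows, 209 held at least 10 listed sites in the mean of the 4 libraries, and these are called methylated windows. That is 69.7% of the windows, against 20.3% of the windows in the rest of chromosome 1. The pattern was nearly the same in every library: 206 windows held at least 10 sites in all 4 lists, 91 windows held fewer than 10 in all 4, and only 3 windows changed class between libraries. Of the 91 sparse windows, 35 had no listed site in any library and none had more than 9 in one library. The methylated windows carried 99.8%, 99.8%, 99.8% and 99.9% of the region's listed sites in WT replicate 1, WT replicate 2, ΔlaeA replicate 1 and ΔlaeA replicate 2.

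**Figure D1:**
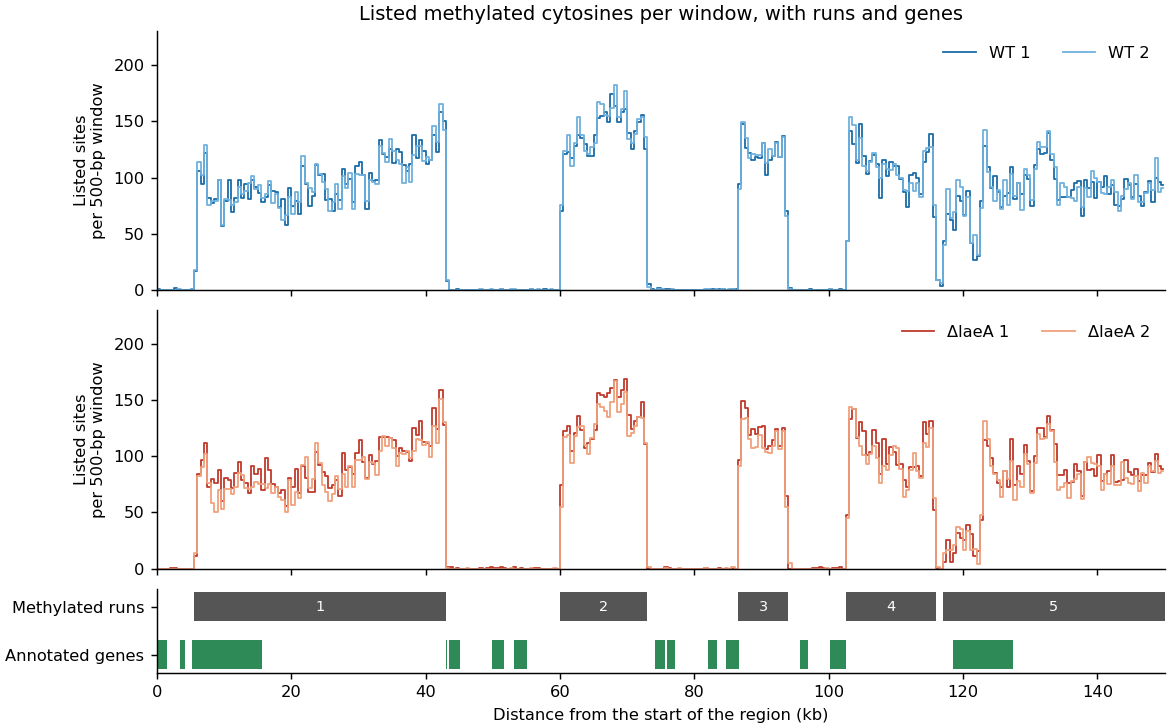
Number of listed sites in each 500-bp window against the distance from the start of the region in kb, for the WT libraries (top) and the ΔlaeA libraries (middle). The bars below mark the 5 runs of methylated windows and the 14 annotated genes. Runs 1 to 4 stand out from stretches with almost no sites, run 5 begins with 12 sparser windows, and most genes lie between the runs.

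Joined across gaps of at most 1 window, the methylated windows formed 5 runs. Run 1 spanned 2865501 to 2903000 (37.5 kb), run 2 spanned 2920001 to 2933000 (13.0 kb), run 3 spanned 2946501 to 2954000 (7.5 kb) and run 4 spanned 2962501 to 2976000 (13.5 kb). Run 5 began at 2977001 and went on past the end of the region to 3030000, so that 33.0 of its 53.0 kb were analysed here. Chromosome 1 had 110 such runs, of which 72 were at least 10 windows long, and the longest was 171.5 kb. Run 5 ranked 10th by length, run 1 ranked 20th, and runs 2, 3 and 4 were of middling length (rank 52, 62 and 47).

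The ends of the region show where the rule placed it. The last 2 windows before its start, 2859001 and 2859501, held 0 to 2 listed sites per library, and the first 2 windows inside, 2860001 and 2860501, held 0 or 1. At the other end the last 2 windows inside, 3009001 and 3009501, held 85 to 96 listed sites, and the next 2 outside, 3010001 and 3010501, held 71 to 104. The left end of the region therefore lay in sequence with almost no listed sites, and the right end cut through run 5.

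In number of sites the methylated windows of the region were somewhat sparser than those elsewhere on the chromosome. Among windows with at least 10 sites in a library, the median was 99, 98, 94 and 91 sites in WT replicate 1, WT replicate 2, ΔlaeA replicate 1 and ΔlaeA replicate 2, against 106, 107, 108 and 102 in the rest of chromosome 1. The median level of these windows was 14.1%, 14.2%, 13.3% and 13.8%, against 14.4%, 14.4%, 14.2% and 14.6%. The highest window level was 34.5% in the region and 61.3% in the rest of the chromosome in WT replicate 1, so that the most strongly methylated windows of the chromosome lay outside. Single sites followed the same order: 1.25%, 1.39%, 0.995% and 0.872% of listed sites in the region had a level of at least 50%, against 2.24%, 2.22%, 2.13% and 2.12% elsewhere.

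CHH sites made up most of the lists, and more so here than elsewhere. Their share of the listed sites was 79.6%, 79.6%, 80.7% and 80.8% in the region, against 77.7% to 78.1% in the rest of chromosome 1. CG sites took 11.6%, 11.8%, 10.9% and 10.7% here and 12.5% to 12.8% elsewhere, and CHG sites took 8.74%, 8.65%, 8.33% and 8.51% here and 9.34% to 9.48% elsewhere. Within the region CHG sites had the highest pooled level in every library (16.6%, 16.7%, 15.9% and 16.1%), followed by CHH (15.95%, 15.96%, 15.05% and 15.37%) and CG (12.91%, 12.78%, 12.02% and 12.69%). In ΔlaeA replicate 2, the library with the fewest reads per site, the 95% Wilson interval ran from 15.87% to 16.40% for CHG, from 15.28% to 15.45% for CHH and from 12.47% to 12.90% for CG, which covers counting error only. The order of the contexts was the same in the rest of chromosome 1.

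Symmetric sites had a listed partner on the other strand somewhat less often than elsewhere on the chromosome. In the region 52.0%, 54.6%, 50.7% and 50.9% of CG sites were listed as pairs in the 4 libraries in the order above, against 55.6%, 56.4%, 55.9% and 53.4% in the rest of chromosome 1. For CHG sites the shares were 47.9%, 48.2%, 49.1% and 46.1%, against 51.4%, 51.7%, 51.4% and 50.6%. CG sites in pairs had a level of 14.7% in WT replicate 1, whereas unpaired CG sites had 11.1%. CHG sites showed the same difference, with 18.8% in pairs and 14.5% unpaired in that library. Since each partner is listed only above a minimum level, a pair is more easily listed where levels are high, and the part of this in the difference was not tested.

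The strands were close to balanced over the region as a whole. The plus strand held 50.8%, 50.8%, 50.9% and 50.8% of the listed sites, against 50.1% to 50.2% in the rest of chromosome 1. Single windows departed from this by much more, and they did so in the same way in the 4 libraries. Across the 206 windows with at least 10 sites in every library, the plus-strand share of any pair of libraries had a Pearson correlation between 0.765 and 0.854, as a description, since the windows share their base composition in every library. Among the 200 windows with at least 20 sites in every library the most unequal was 2988501 to 2989000, where the plus strand held 71.8%, 70.4%, 73.8% and 76.7% of the sites. In the window at 3002001 the plus strand held 68.8%, 76.5%, 79.2% and 67.0%. The window at 2994001 leaned to the minus strand, with 27.5%, 26.3%, 26.5% and 28.6% on the plus strand. All 3 windows lay in run 5, beyond its only gene. With fewer sites, the first window of run 1 (2865501) was more unequal still, with 88.2%, 88.9%, 81.8% and 78.6% on the plus strand among 17, 18, 11 and 14 sites.

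Level rose with site number and fell with depth along the region. Over the same 206 windows the level correlated with the number of listed sites (Pearson r of 0.716, 0.726, 0.759 and 0.692 in the 4 libraries) and inversely with the depth of the window relative to the library median (r of -0.475, -0.476, -0.403 and -0.548). These are descriptions across neighbouring windows of the same libraries. A cytosine is listed only above a minimum level, so level and site number are not independent measures. The rest of chromosome 1 gave r between 0.573 and 0.604 for level against site number and between -0.619 and -0.467 for level against depth. The part of depth in the levels was not tested. No listed site of the region was deeper than 2 times its library's median.

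Run 2 was the most densely and the most strongly methylated of the 5 runs. It held 138, 142, 134 and 126 listed sites per window in WT replicate 1, WT replicate 2, ΔlaeA replicate 1 and ΔlaeA replicate 2, whereas run 1 held 97.3, 96.9, 91.4 and 85.1. The level of run 2 was 20.8%, 20.7%, 18.4% and 18.6%, followed by run 3 with 19.1%, 19.2%, 18.1% and 17.5%. Run 4 came next with 16.2%, 16.2%, 15.6% and 16.1%, then run 1 with 14.6%, 14.7%, 13.7% and 14.3%. The order of these 4 runs was the same in every library, although in ΔlaeA replicate 1 runs 2 and 3 differed by little. Run 2 was also the shallowest, with a median of 47, 49, 47 and 40.5 reads per listed site, against 55, 58, 56 and 45 in run 1.

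The 3 windows with the most listed sites of the region were all in run 2. The window at 2928001 held 164, 182, 168 and 167 sites, the window at 2929501 held 161, 177, 169 and 157, and the window at 2927501 held 174, 162, 161 and 148. Sites were this dense in both strains, and the strains overlapped in 2 of the 3 windows. The depth of the window at 2928001 was 0.569, 0.605, 0.601 and 0.785 of the library's median, below the median of the region's sites in every library (0.964, 0.949, 0.964 and 0.936).

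Runs also differed in the contexts of their sites. The CHG share was lowest in run 3, with 5.66%, 5.81%, 5.75% and 5.81%, and highest among the dense runs in run 2, with 11.0%, 10.9%, 10.8% and 11.0%. CG sites took 13.9%, 14.7%, 13.2% and 13.0% of run 2 but 8.04%, 8.63%, 7.79% and 7.51% of run 5 beyond its first 6 kb. These shares differed more between runs than between libraries of the same run. In run 3 the few CHG sites had a higher level than the CHH sites in all libraries (22.4%, 21.9%, 20.3% and 19.2% against 19.3%, 19.6%, 18.6% and 17.7%).

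**Figure D2:**
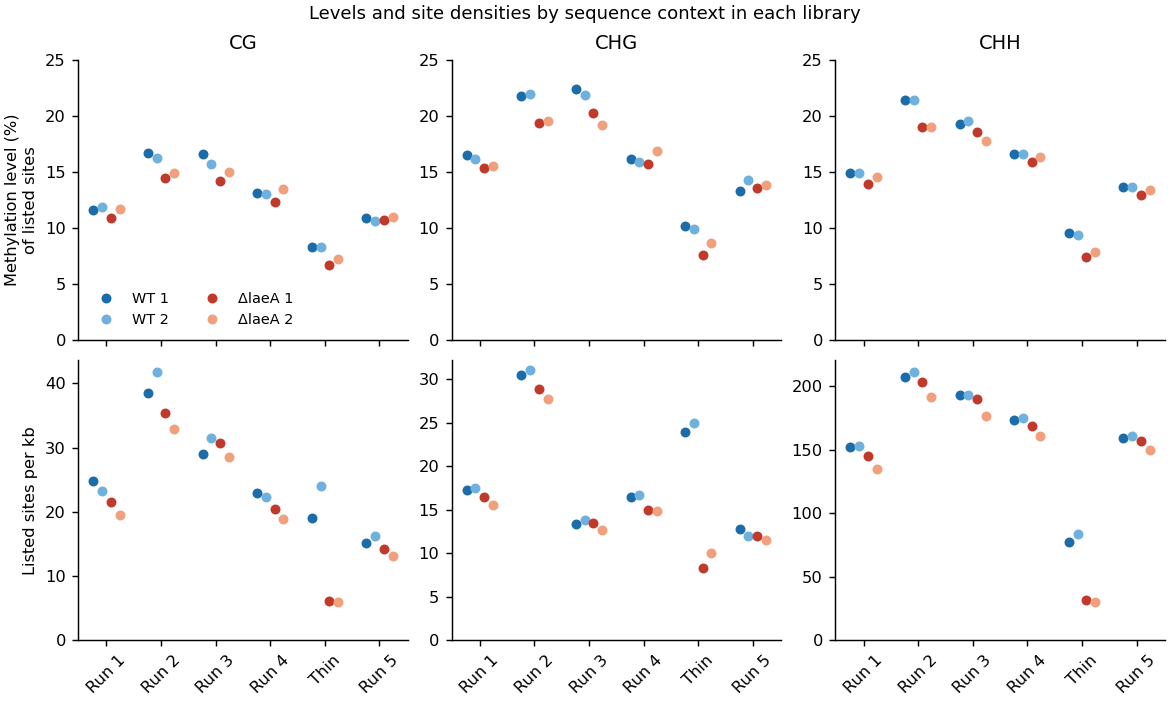
Methylation level of listed sites (top, %) and listed sites per kb (bottom) for CG, CHG and CHH sites in each run, with 1 point per library. Run 5 is divided into its first 6 kb (Thin) and the rest within the region (Run 5). The thin stretch has the lowest level in every context and the widest separation of WT from ΔlaeA in site density, whereas in the other runs the site densities of the strains lie closer together. In level the strains are also apart in every context in runs 2 and 3.

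At 7 run ends, both ends of runs 1, 2 and 3 and the left end of run 4, methylation ended sharply. At each end the outermost site listed in all 4 libraries was taken as the edge. Runs end where windows hold fewer than 10 listed sites in the mean, so part of the contrast across an edge is set by these definitions. In the 2000 bp outside the 7 edges the libraries listed 46, 52, 38 and 39 sites in all, against 3536, 3609, 3408 and 3248 sites in the 2000 bp inside. Per 500 bp this is 1.64, 1.86, 1.36 and 1.39 sites outside and 126, 129, 122 and 116 inside. Most of the change took place within the first 250 bp, where WT replicate 1 already held 54.3 sites per 250 bp in the mean of the 7 ends.

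The ends that face each other between runs 4 and 5 were left out of these sums, since only 2 windows lie between them. The left end of run 5 was less sharp, with 72, 96, 24 and 16 sites in the 500 bp inside and 46, 42, 8 and 15 in the 500 bp outside. At the right end of run 4 the libraries held 99, 106, 82 and 92 sites in the 500 bp inside and 7, 11, 3 and 7 in the 500 bp outside. Outside the right end of run 4, 111, 129, 31 and 35 sites lay within 2000 bp, a distance that reaches into run 5.

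Over the 7 ends the pooled level was highest a short way inside the edges and declined further in. Pooled over the 7 ends, WT replicate 1 had 15.7% in the first 250 bp, 24.3% in the 250 bp from 500 bp on and 16.4% in the 250 bp from 3250 bp on. ΔlaeA replicate 1 showed the same course with 16.2%, 21.7% and 15.8%. The rise was not seen at every end. At the left end of run 2 the level was 18.0%, 19.1%, 17.3% and 17.0% in the first 2000 bp and 18.4%, 18.2%, 16.6% and 17.2% between 2000 and 6000 bp, and at the right end of run 3 the first 2000 bp were the lower ones in 2 of the 4 libraries. The left end of run 5, outside the 7, ran the other way in every library, with 9.40%, 9.36%, 6.90% and 7.09% in the first 2000 bp and 11.1%, 10.9%, 10.2% and 10.8% between 2000 and 6000 bp. The decline was steepest at the left end of run 4, with 23.5%, 24.9%, 23.1% and 25.6% in the first 2000 bp and 15.5%, 15.1%, 15.0% and 14.7% between 2000 and 6000 bp.

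**Figure D3:**
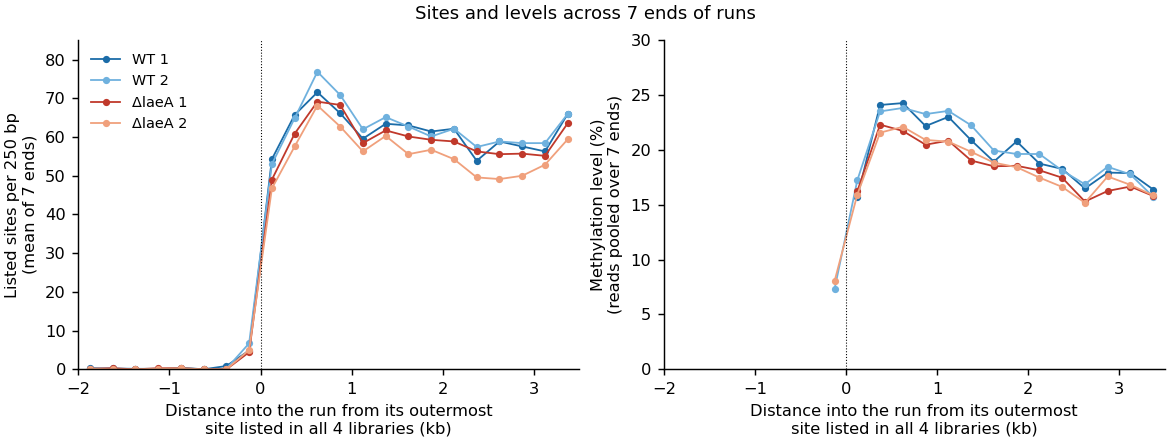
Listed sites per 250 bp (left, mean of 7 ends) and methylation level (right, %, reads pooled over the 7 ends, shown where the mean is at least 5 sites) against the distance into the run from its outermost site listed in all 4 libraries. Each line is 1 library. Site number jumps at the edge from almost 0 to about 50, and the level peaks within the first 1 kb and then declines in all 4 libraries.

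Among windows with at least 10 sites listed in all 4 libraries, the 3 with the highest WT level at those sites all lay within 2000 bp of such an edge. The highest was 2932001 to 2932500, in the last 1 kb of run 2, whose 125 sites listed in all libraries had levels of 39.8% and 36.6% in WT and 29.3% and 28.6% in ΔlaeA. The window at 2901501, near the right end of run 1, followed with 30.3% and 30.9% in WT and 29.1% and 25.1% in ΔlaeA over 103 sites. The window at 2963001, near the left end of run 4, had 28.1% and 31.4% in WT and 27.3% and 30.9% in ΔlaeA over 118 sites. The strains were apart in the first 2 of these windows and overlapped in the last. By the same measure the lowest WT levels were found at 2892001 inside run 1 (11.4% and 11.3% in WT, 10.8% and 10.9% in ΔlaeA), at 2982501 (13.9% and 11.6% in WT, 11.3% and 14.3% in ΔlaeA) and at 3005501 in run 5 (11.9% and 13.9% in WT, 12.2% and 13.5% in ΔlaeA). By all listed sites, several windows of low site number lay lower still, such as the first windows of run 1 (2865501, WT mean 9.05%) and run 5 (2977001, WT mean 8.51%).

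By number, the genes of the region lay mostly between the runs, although the 2 longest lay largely within runs. According to the RefSeq annotation of assembly ASM22609v1, 14 genes overlap the region and cover 24.4% of it, against 51.5% of the rest of chromosome 1. In the sparse windows of the region 38.0% of the bases lay in genes, and in the methylated windows 18.4%. Methylated windows elsewhere on chromosome 1 had 3.17% of their bases in genes. The annotation names none of the 14 genes, so no function is given. In the rest of chromosome 1, 46 of 2747 genes, or 1.67%, held at least 10 listed sites in the mean of the libraries, and in the region 2 of 14 genes did.

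Those 2 genes were long and made up most of the genic sequence in the methylated windows. MYCTH_2122648 (2865178 to 2875648, 10471 bp) lay at the left end of run 1, and 21 of the 22 windows it touched were methylated. It held 1718 and 1737 listed sites in WT and 1595 and 1434 in ΔlaeA. At its 1040 sites listed in all libraries the level was 17.86% and 17.95% in WT and 15.97% and 16.54% in ΔlaeA, so that both ΔlaeA libraries were below both WT libraries. The edge of run 1 lay inside this gene, 613 bp from its start coordinate, and the gene's first window was not among the methylated windows.

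MYCTH_62778 (2978486 to 2987485, 9000 bp) lay in run 5, and all 19 windows it touched were methylated. It held 1417 and 1459 listed sites in WT and 1068 and 1055 in ΔlaeA. The gene spanned a change in methylation. Its first 4515 bp held 553 and 607 sites in WT and 243 and 233 in ΔlaeA, whereas its other 4485 bp held 864 and 852 in WT and 825 and 822 in ΔlaeA. The difference in site number was thus much larger in the low-coordinate part, although in both parts the ΔlaeA libraries held fewer sites than the WT libraries.

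The other 12 genes were almost free of listed sites, and 8 genes held at most 3 sites in every library. MYCTH_2295590 (2944642 to 2946615) touched the first window of run 3, whose edge lay 48 bp inside the gene's end, and it held 9, 4, 6 and 9 sites. MYCTH_76502 (2960251 to 2962506) ended 294 bp before the edge of run 4 and held 1, 0, 4 and 0 sites. The tRNA gene MYCTH_t41 (2903056 to 2903129) lay 72 bp beyond the right edge of run 1 and held 5, 4, 2 and 0 sites. At the other ends of runs 1 to 4 the nearest gene outside the run was 1183 bp (MYCTH_2106582, right of run 2) to 5271 bp (MYCTH_91282, left of run 2) away. Left of run 5 it was 15071 bp away (MYCTH_76502, on the far side of run 4). After MYCTH_62778 no gene is annotated for the remainder of the region, and the next one starts at 3031558, 21558 bp past its end and beyond the end of run 5.

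The first 6 kb of run 5, from 2977001 to 2983000, was sparser and weaker in methylation than the rest of the runs and held all windows called for site number below. It was picked out after its values were seen and is called the thin stretch here. It comprised 12 windows, separated from run 4 by 2 windows that held 13, 15, 1 and 2 listed sites in all. In WT it held 723 and 797 listed sites, or 60.3 and 66.4 per window. In ΔlaeA it held 277 and 279, or 23.1 and 23.3 per window. This corresponds to 760 ± 52.3 sites in WT and 278 ± 1.41 in ΔlaeA (SD, n = 2), 63.4% fewer (exact permutation test, two-sided, p = 0.333, the smallest value that 2 against 2 libraries allow). The median depth of the listed sites was 55, 59, 56 and 53 reads. The depth of cytosines that were not listed is not known.

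**Figure D4:**
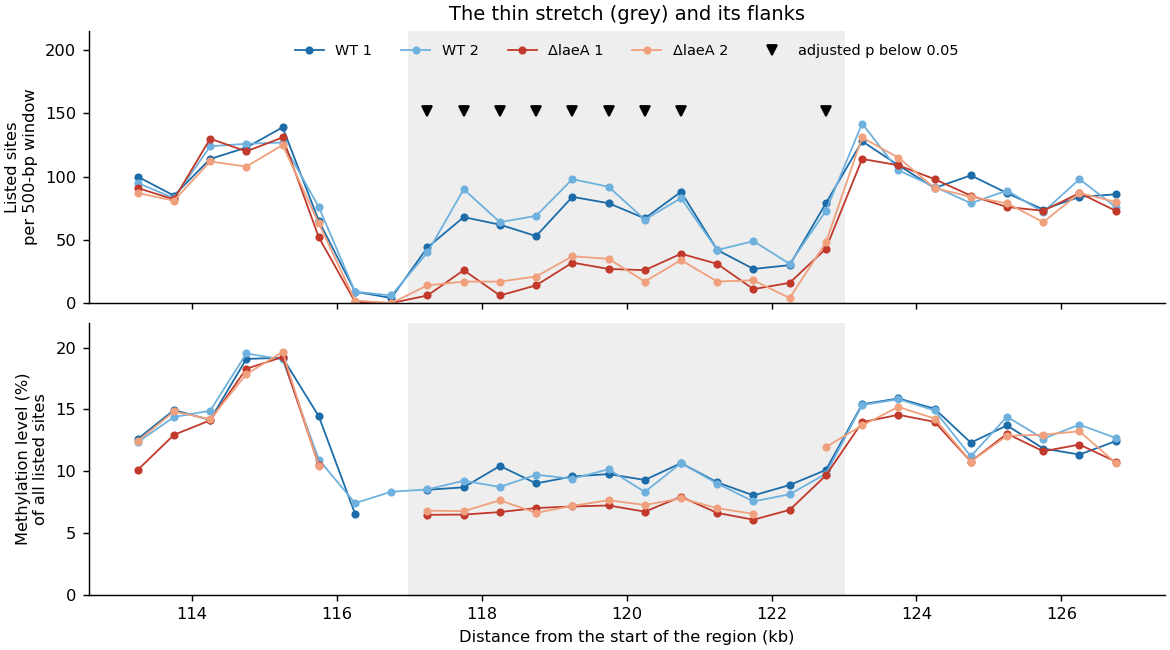
Listed sites per 500-bp window (top) and methylation level of all listed sites (bottom, %, windows with at least 5 sites in the library) in the thin stretch (grey) and the 4 kb on either side, against the distance from the start of the region in kb. Triangles mark the 9 windows past an adjusted p of 0.05 in the test of site number. In number of sites the ΔlaeA libraries lie below the WT libraries in all 12 windows of the stretch. In level the strains overlap in its last window, and the difference in site number also covers the 2 sparse windows on its left.

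Both ΔlaeA libraries held fewer sites than both WT libraries in all 12 windows of the thin stretch, an ordering seen in 29.9% of all methylated windows of the genome. In the test of site number per window (edgeR quasi-likelihood F-test with Benjamini-Hochberg adjustment over 20468 windows of all chromosomes, 2 libraries per strain), 9 of the 209 methylated windows of the region had fewer sites in ΔlaeA at an adjusted p below 0.05 and none had more. Over all windows 0.596% were called with fewer sites and 0.166% with more. All 9 windows lay in the thin stretch. Without either ΔlaeA library the same test called no window anywhere, while 606 and 520 windows of all 20468 were below an unadjusted p of 0.05. The differences kept their sign: at 2979001 the log2 difference was -1.34 with all libraries, -1.20 without ΔlaeA replicate 1 and -1.49 without ΔlaeA replicate 2, and at 2980501 it was -1.17, -1.23 and -1.12. DESeq2 called 6 of the 9.

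The strongest differences were found at the start of the stretch. The window at 2978001 held 62 and 64 sites in WT and 6 and 17 in ΔlaeA, a 5.23-fold difference (edgeR adjusted p = 0.000134). The window at 2977001 held 44 and 40 sites in WT and 6 and 14 in ΔlaeA (4.01-fold, edgeR adjusted p = 0.0038). The window at 2977501 held 68 and 90 sites in WT and 26 and 17 in ΔlaeA (3.53-fold, edgeR adjusted p = 7.7e-05). The groups did not overlap in any of the 3 windows. The sizes depend on single ΔlaeA libraries: without ΔlaeA replicate 1 or 2 the log2 difference of -2.39 at 2978001 became -1.79 or -3.35, and that of -2.003 at 2977001 became -1.48 or -2.77. The other 6 windows called ranged from 1.61-fold at 2982501 to 3.34-fold at 2978501, and 3 of the 12 windows did not pass the threshold.

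The sites that remained were weakly methylated in both strains. The level of all listed sites of the thin stretch was 9.52% and 9.29% in WT and 7.35% and 7.98% in ΔlaeA, below every other run in each library. Of 1111 positions listed in any library, 97, or 8.73%, were listed in all 4, against 49.9% over the region and 53.4% in the rest of chromosome 1. Positions listed in both WT libraries but in neither ΔlaeA library numbered 223, and those listed in both ΔlaeA libraries only numbered 3. These are 20.1% and 0.270% of the positions, against 4.04% and 1.60% over the region and 2.46% and 1.97% in the rest of chromosome 1. The 223 positions had a level of 9.26% and 9.10% in the WT libraries, on a median of 4 and 5 methylated reads. The 97 shared positions had 13.4% and 13.0% in WT and 8.52% and 9.45% in ΔlaeA. Sites in this stretch were thus near the lower limit of what the lists record, since at 50 to 60 reads a listed site needed at least 3 methylated reads.

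The thin stretch also differed in sequence context. CHG sites took 19.9% and 18.8% of its sites in WT and 18.1% and 21.5% in ΔlaeA, and CG sites took 15.8% and 18.1% in WT and 13.4% and 12.9% in ΔlaeA. In the rest of run 5 the CHG share was 6.33% to 6.82% and the CG share 7.51% to 8.63%. In run 2 the CHG share was 10.8% to 11.0%, and the CG share was 13.9% and 14.7% in WT and 13.2% and 13.0% in ΔlaeA. The CG share of the thin stretch was thus above that of run 2 in WT but close to it in ΔlaeA. All 3 contexts held fewer sites in ΔlaeA. CG sites numbered 114 and 144 in WT against 37 and 36 in ΔlaeA, CHG sites 144 and 150 against 50 and 60, and CHH sites 465 and 503 against 190 and 183. The ranges of the strains did not overlap in any context (exact permutation p = 0.333 each).

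The deposited table of differentially methylated regions gives the number of cytosines in each of its regions, so the share of cytosines that was listed could be computed there. These regions had been selected for a difference between the strains. The table holds 13 regions inside the 150 kb, of 283 in all, and the authors' mean was lower in ΔlaeA in all 13, as in 216 of the 283. Of these 13 regions, 10 were CHH, 2 were CHG and 1 was CG, and 7 lay in the thin stretch. The longest, a CHH region at 2977558 to 2978724 with 318 cytosines, had 100 and 111 of them listed in WT (31.4% and 34.9%) and 25 and 28 in ΔlaeA (7.86% and 8.81%). The authors' mean level over it was 4.54% in WT and 1.68% in ΔlaeA. A CHG region at 2978302 to 2978468 with 18 cytosines had 10 and 7 listed in WT and 0 and 3 in ΔlaeA.

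The picture was different at the right end of run 2. The CHH region at 2931388 to 2932498 with 295 cytosines had 249 and 250 of them listed in WT (84.4% and 84.7%) and 236 and 224 in ΔlaeA (80.0% and 75.9%). The authors' mean level was 26.0% in WT and 18.8% in ΔlaeA. Most cytosines were thus listed in each library there. The strains differed in level, and both ΔlaeA libraries also listed somewhat fewer of the cytosines than both WT libraries. In the CHH region of the thin stretch named above most cytosines were unlisted in each library of both strains.

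Levels were compared between strains at the sites listed in all 4 libraries, in 200 windows of the region with at least 10 such sites. Both ΔlaeA libraries were below both WT libraries in 109 of them, or 54.5%, and above both in 4. Over all 19806 windows tested in the genome the first share was 31.6%, and in the rest of chromosome 1 it was 26.5%. The median difference between ΔlaeA and WT was -1.40 percentage points in the region, -0.48 over all windows and -0.26 in the rest of chromosome 1. Since the region was chosen with this contrast known, nothing is read from these shares. The median difference was -1.43 points in run 1, -2.87 in run 2, -2.02 in run 3, -1.07 in run 4 and -0.67 in run 5 beyond the thin stretch.

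**Figure D5:**
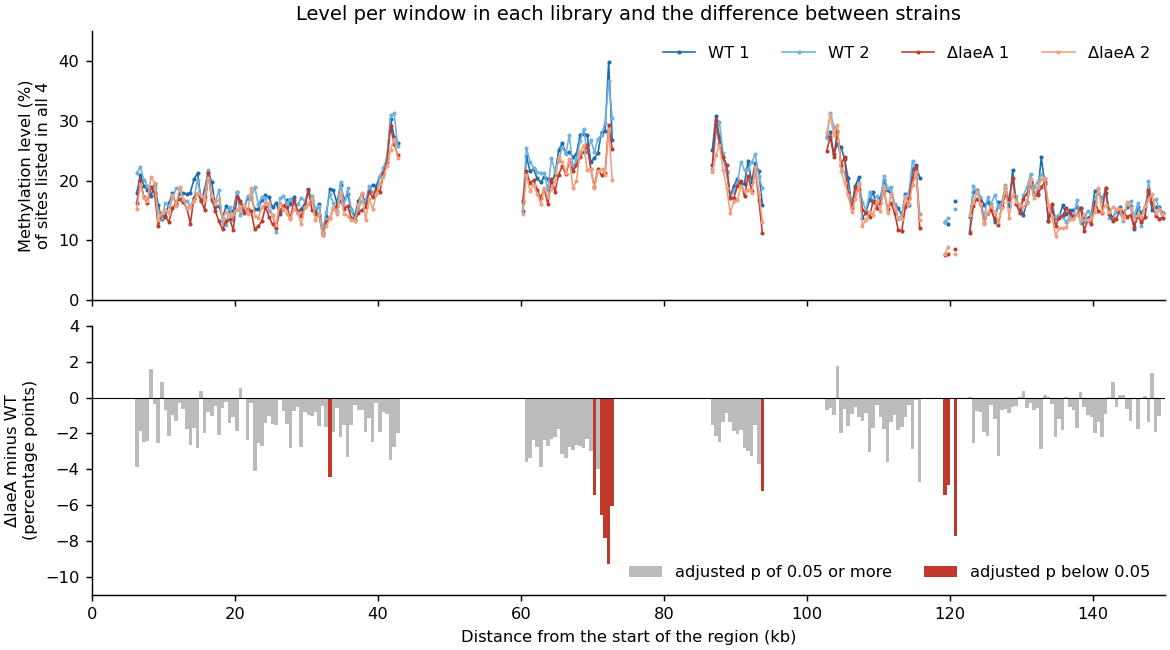
Top, methylation level (%) of the sites listed in all 4 libraries in each 500-bp window with at least 10 such sites, against the distance from the start of the region in kb, with 1 line per library. Bottom, difference between the ΔlaeA and WT means in percentage points, in red where the adjusted p was below 0.05. The 10 red windows are all negative, and 5 of them lie together at the right end of run 2.

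In the edgeR quasi-likelihood F-test of level (Benjamini-Hochberg adjustment over 19806 windows), 10 of the 200 windows were lower in ΔlaeA at an adjusted p below 0.05 and none was higher. Over all windows 1.23% were called lower and 0.389% higher. Of the 10 windows, 5 lay in the last 3 kb of run 2, 3 lay in the thin stretch, 1 was the last window of run 3 (2953501) and 1 lay within run 1 (2893001). Run 4 and run 5 beyond the thin stretch had none.

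The window with the largest difference in percentage points lay in the last 3 kb of run 2. In the window at 2932001 the level fell from 38.2% ± 2.26 in WT to 28.9% ± 0.473 in ΔlaeA (SD, n = 2 each, edgeR adjusted p = 0.00121) over 125 sites with 31.1 to 47.3 reads per site. In the window at 2931501 the libraries had 28.4% and 29.7% in WT and 21.3% and 21.0% in ΔlaeA over 106 sites (edgeR adjusted p = 0.00101). The neighbouring windows at 2930001, 2931001 and 2932501 differed by -5.41, -6.54 and -6.04 percentage points (adjusted p in edgeR 0.0134, 0.00404 and 0.0479). The window at 2930501 between them did not pass. The difference at 2932501 is the least firm of these, since ΔlaeA replicate 1 had 25.2% there and ΔlaeA replicate 2 had 20.04%, and the difference was -8.62 points without the former and -3.46 without the latter.

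In the thin stretch only 4 windows had 10 or more shared sites, and 3 of them were called. The largest difference was at 2980501, with 16.5% and 15.2% in WT and 8.63% and 7.70% in ΔlaeA over 15 sites (edgeR adjusted p = 0.00101). The windows at 2979001 and 2979501 had 13.1% and 13.1%, and 12.7% and 13.7%, in WT, and 7.62% and 7.69%, and 7.69% and 8.90%, in ΔlaeA. The fourth, 2982501 at the border to the denser part of run 5, had overlapping strains. The 97 shared sites of the stretch were more strongly methylated than its listed sites as a whole in every library.

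Over the whole region the strains differed by less than in these windows. The region held 21359 and 21590 listed sites in WT and 20103 and 18924 in ΔlaeA, or 21474.5 ± 163 against 19513.5 ± 834 (SD, n = 2). As a share of each library's listed sites this is 1.06% and 1.06% in WT and 0.995% and 0.996% in ΔlaeA. Both differences gave an exact permutation p = 0.333 (two-sided, n = 2 each), the smallest value possible, so a p below 0.05 could not be reached. The difference in the number of sites was -1961 over the region and -482 in the thin stretch, which holds 12 of the 209 methylated windows. The rest of chromosome 1 had 468123 and 473602 sites in WT and 476727 and 448338 in ΔlaeA, so the strains overlapped there in raw number. As a share of each library's listed sites they did not overlap there. That share was 23.17% and 23.17% in WT and 23.59% and 23.60% in ΔlaeA.

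In each context the pooled level of the region was below the WT range in both mutant libraries. CHH sites had 15.96% ± 0.00966 in WT and 15.2% ± 0.221 in ΔlaeA, CHG sites 16.66% ± 0.0693 and 16.03% ± 0.148, and CG sites 12.8% ± 0.0933 and 12.4% ± 0.468 (SD, n = 2 each, exact permutation p = 0.333 for each context). The CG difference of -0.49 points became -0.16 when ΔlaeA replicate 1 was left out, and -0.82 when replicate 2 was. At the sites listed in all 4 libraries the differences were larger, -1.68, -2.13 and -1.80 percentage points for CHH, CHG and CG. Weakly methylated sites enter or leave the lists with the level, so the lists of each strain are not the same sites, and the shared sites are the like-for-like comparison.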

How the data were processed

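Per the labels, genomic DNA of mycelium was spiked with lambda phage DNA, sonicated, bisulfite converted and sequenced in pairs. FastQC 0.11.5 and Bismark 0.16.3 are named in the submitters' processing notes. The settings, the caller of the lists and the genome build are not given in the sources used here. Each deposited list gives, per called cytosine, the authors' counts of methylated and unmethylated reads, the level as a fraction, the context, and a p-value with its adjusted value. The deposited table of differentially methylated regions gives the authors' mean level per strain as a fraction and the number of cytosines per region. Its columns with the authors' difference and a score of that difference (area statistic) were not used. The positions were used as deposited. They were joined to the RefSeq annotation of ASM22609v1 on chromosome and position, and the chromosomes were numbered 1 to 7 by sequence name.

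The 300 windows, the lists of windows and genes and the tests were chosen with earlier results of these data known. The level of a window was the sum of methylated over all reads, and the level test used sites listed in all 4 libraries, with at least 10 such sites and 10 methylated reads per window. Both tests were fitted over the windows of all chromosomes with edgeR 4.0.16 (quasi-likelihood F-test, R 4.3.3). They were also run on simulated windows, where the spread for the level test was set in advance. That run does not measure error rates in these libraries. The site-number test used windows with at least 10 listed sites in the mean and TMM scaling. Totals of the region were compared with exact permutation tests (scipy 1.17.1), whose smallest p was 0.333. Wilson intervals of 95% cover counting error only, since duplicate handling is not given in the sources used here. Named windows were the 3 with the most sites, the 3 highest and 3 lowest in WT level, up to 3 changes per test and direction, the 3 most strand-biased with at least 20 sites per library, and the ends of runs of at least 10 windows. Named genes were those touching methylated windows or run ends. Alternatives left out each library, added the replicate number as a block, and changed minima, windows, scaling or tool (DESeq2 1.42.0). No paired design was used. No genome sequence was used here, so no sequence is shown and base composition was not analysed.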

Additional observations from a re-analysis of the deposited data

How the results depend on the processing

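The count of windows of the region with a lower level in ΔlaeA (10) ranged from 7 to 12 when each library was left out. It moved to 16 with a replicate block, 6 with at least 20 shared sites, 18 in windows shifted by 250 bp and 87 with Fisher's exact test on reads summed per strain, a test blind to replicate spread. No window of the region was called higher in any of these fits. Over all chromosomes the level test called 320 windows, against 607 with the block, 486 in 1-kb windows and 5081 with Fisher's exact test, and the site-number test called 156, against 42 with DESeq2. The count with fewer listed sites (9) ranged from 0 to 9 when each library was left out, with 0 without either ΔlaeA library, and was 11 with the replicate block and 6 with DESeq2. Deviations of equally numbered libraries from their strain means correlated at 0.00979 for level and -0.0109 for site number. A batch that shifts all windows alike would not show in these values, so whether equal numbers share a batch is not known. Of the single windows called, 107 of 117 level values and 74 of 99 site-number values stayed past the threshold over the alternatives and none changed sign. The level calls at 2931001, 2931501, 2932001, 2979001 and 2980501 stayed past it in every alternative that could be fitted, whereas the level call at 2932501 held in 9 of 12 (highest adjusted p 0.392) and the site-number call at 2982501 held in 4 of 11.

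The differences in pooled level and in number of sites kept their sign in each alternative. Leaving out each library gave -0.821 to -0.158 percentage points for CG, -0.735 to -0.526 for CHG and -0.903 to -0.589 for CHH, and -2550.5 to -1371.5 sites for the region. At the sites listed in all 4 libraries the differences were -1.80 for CG, -2.13 for CHG and -1.68 for CHH. The difference in site number in the thin stretch ran from -519 to -445 without each library and was -483.5 sites with at least 3 methylated reads per site and -482 with at least 10 or 20 reads, alternatives added after seeing the data. With 2 libraries per strain no exact test could pass 0.05. The lists record no unmethylated cytosines, so levels near the listing limit, as in the thin stretch, cannot be told apart from loss of methylation at single sites.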
